A study of Mus musculus with 4 samples.

Results

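*Vmp1*, the gene that carries the miR-21 hairpin at the end of its transcript, and 9 core autophagy genes were compared between the mammary glands of wild-type (miR-21+/+) and miR-21-deficient (miR-21-/-) mice. The 10 genes were chosen by name, and each had a single row among the 30506 loci of the expression table, of which 22483 carry a gene name. RNA came from whole mammary gland of 4 mice labelled as 2 months old, 2 of each genotype. All were on a mixed 129SV::FVB/N::C57BL/6 background. The paper describes the tissue as virgin mammary gland. The miR-21-/- mice lack miR-21, and no other allele or treatment was named for either group. How much of the locus was removed is not given in the sources used here. Poly(A) RNA was sequenced and expressed as FPKM, a level scaled to the length of the transcript and to the number of mapped fragments. The table gives 1 combined value per genotype, so the values of single mice and the spread between them were not analysed here. For that reason all differences are given without a test or an error, and none has a replicate check. The depth of the libraries is unknown.

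Autophagy encloses cytoplasm in a double membrane, the autophagosome, which then fuses with lysosomes. VMP1 is a membrane protein of the endoplasmic reticulum that moves lipids between membrane leaflets and is needed for autophagosomes to form. Beclin 1 belongs to the lipid kinase complex that marks the forming membrane, and ATG9A is the membrane protein of the vesicles that feed it. ATG7, ATG3 and the ATG12-ATG5 conjugate attach the LC3 proteins to the membrane. LC3 in turn holds cargo receptors such as p62, the product of *Sqstm1*. In the mammary gland autophagy is known to be active when the tissue regresses after weaning.

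The host gene and its microRNA share a strand and an exon. In the mm9 build, *Vmp1* (ENSMUSG00000018171.3) occupies 86397367 to 86497338 of chromosome 11 and is read from the minus strand. The *Mir21* hairpin of 92 nt lies in the 3′ UTR of the last exon, starting 1150 nt into this UTR of 1443 nt and ending 202 nt before the end of the mRNA. It takes up 3.30% of the spliced *Vmp1* mRNA of 2787 nt. Both mature arms are shown because they are the sequences lost in the miR-21-/- mice. They are RefSeq sequences (GRCm38.p6), and each was found unchanged in the mm9 transcript. Capitals mark the seed, bases 2 to 8.
mmu-miR-21a-5p, chromosome 11, 86397622 to 86397643: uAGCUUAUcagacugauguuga
mmu-miR-21a-3p, chromosome 11, 86397584 to 86397605: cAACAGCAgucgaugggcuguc
The table merges *Mir21* and *Vmp1* into 1 locus, and poly(A) sequencing does not measure the mature microRNA. The value given for *Vmp1* is therefore that of the whole merged locus. It could include a poly(A) primary miR-21 transcript that shares the 3′ part of the host gene, which cannot be told apart from *Vmp1* mRNA here, and it does not check the genotype labels.

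*Vmp1* had 42.5 FPKM in miR-21+/+ and 68.2 FPKM in miR-21-/- tissue. It was 1.60-fold higher without miR-21, a log2 ratio of 0.68. Among 9714 named loci above 5 FPKM in at least 1 genotype, 2.95% had a log2 ratio at least as high. A locus was counted as past the limit when its values differed by 1.5-fold or more. *Vmp1* was the only 1 of the 10 genes past this limit with the values as deposited, against 3.85% of named loci past it in the higher direction and 4.33% in the lower. Among 3501 named loci with a mean above 20 FPKM the share past it in the higher direction was 3.37%. When both columns were scaled to equal sums over all loci, every log2 ratio shifted by −0.63. The log2 ratio of *Vmp1* was then 0.052, and 8 of the 10 genes were past the limit, beside 69.0% of named loci. This scaling also counts the loci without a gene name, and it left the median of the named loci at −0.67. With equal sums over named loci only, the shift was 0.099 and the log2 ratio of *Vmp1* was 0.78. With the median named locus set to 0 the ratio was 0.71.

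Markers of several cell types had unlike values in the genotypes, and none of the 41 examined was at 0. All 9 epithelial markers examined, luminal and basal, were higher in miR-21-/- tissue as deposited, by 0.15 for *Krt19* to 0.76 for *Krt14* on the log2 scale, with a median of 0.52, and 3 of them were past 1.5-fold. The luminal markers summed to 584.8 FPKM in miR-21+/+ and 786.7 FPKM in miR-21-/- tissue, and the basal markers to 70.3 and 107.5 FPKM. With equal sums over all loci 3 of the 9 were higher. The ratio of *Vmp1*, 0.68, lay within the range of these markers. It also lay within that of the skeletal muscle markers (0.48 to 1.86). Of the white fat markers (−0.54 to 1.29) only *Lep* was above it, and the other 4 were at −0.07 or lower. Of 5 white fat markers 4 were lower as deposited and 3 with equal sums over named loci, among them *Fabp4* with 7677 and 5523 FPKM, and *Lep* was higher. The 5 together summed to 10251 FPKM in miR-21+/+ and 7471 FPKM in miR-21-/- tissue. The 3 brown fat markers summed to 218.1 and 105.7 FPKM. The 6 skeletal muscle markers summed to 1023 and 1690 FPKM, the 4 B cell markers to 95.5 and 52.5 FPKM and the 3 T cell markers to 19.4 and 4.05 FPKM. Macrophage, fibroblast and endothelial markers had medians of −0.03, −0.07 and 0.11. Some markers stand in merged loci: *Krt14* with *Krt16*, *Cd68* of macrophages with *Eif4a1* and *Senp3*, and *Cd79a* of B cells with *Arhgef1*. The merged *Cd79a* locus gave 70.3 and 48.3 FPKM of the B cell sums. The part of these differences in the values of *Vmp1* and the other autophagy genes was not tested. In whole tissue, fewer cells of a type and less RNA per cell cannot be told apart.

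The other 9 genes lay close to a ratio of 1. Their log2 ratios ran from −0.19 to 0.21, with a median of −0.05, beside −0.03 over the named loci. As deposited, 2 of the 9 were higher and 7 lower in miR-21-/- tissue. These directions depended on scaling: with equal sums over named loci 7 of the 9 were higher (*Atg3* and *Atg7* stayed lower), and with equal sums over all loci all 9 were lower. *Vmp1* was higher under each of these scalings.

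**Figure D1:**
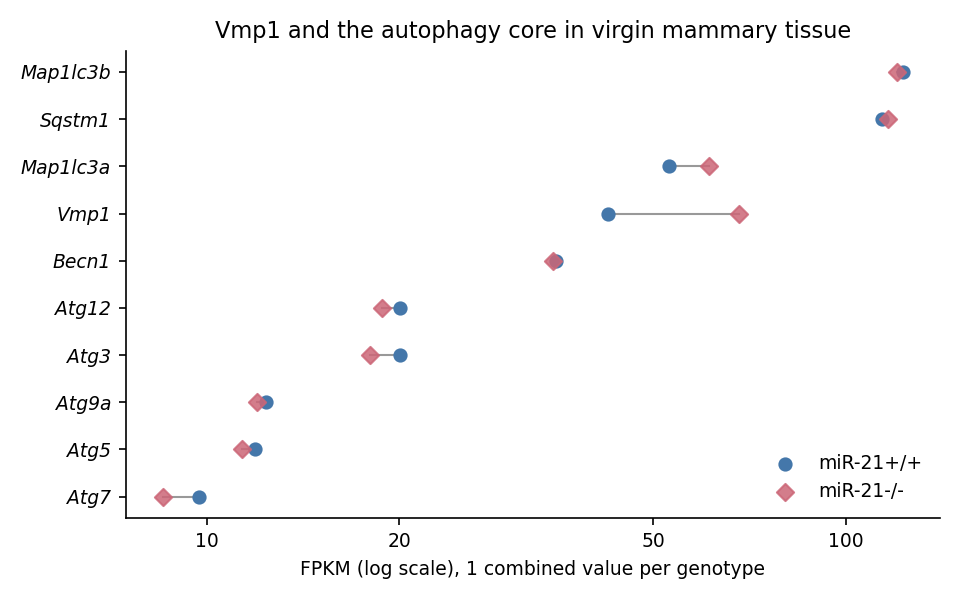
FPKM (log axis) of the 10 genes, with 1 combined value for miR-21+/+ (circles) and miR-21-/- tissue (diamonds) joined by a line. *Vmp1* moves from 42.5 to 68.2 FPKM and passes *Map1lc3a*, while the pairs of the other genes lie close together.

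In miR-21+/+ tissue the mRNAs of the LC3 proteins and of the cargo receptor were the most abundant of the 10. *Map1lc3b* (chromosome 8, 124114368 to 124121947), which encodes LC3B, had 122.8 FPKM in miR-21+/+ and 120.5 FPKM in miR-21-/- tissue, a log2 ratio of −0.03. *Sqstm1*, which encodes the receptor p62, had 113.9 and 116.6 FPKM, a log2 ratio of 0.03. Both genes thus differed by under 3% between genotypes. The p62 protein is itself degraded by autophagy, so its mRNA level is not a measure of that turnover. The row of *Sqstm1* shares its locus, chromosome 11 from 49988353 to 50026794, with a row for 3010026O09Rik.

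*Map1lc3a* (chromosome 2, 155102180 to 155103809), which encodes the related LC3A, came next in miR-21+/+ tissue. It had 53.0 FPKM in miR-21+/+ and 61.2 FPKM in miR-21-/- tissue, a log2 ratio of 0.21. As deposited, this was the largest log2 ratio of the 10 after that of *Vmp1*, and 32.4% of named loci lay at least as far from 0. The level of *Map1lc3b* was 2.32 times that of *Map1lc3a* in miR-21+/+ and 1.97 times in miR-21-/- tissue. In miR-21+/+ tissue *Vmp1* was below *Map1lc3a*, at 0.802 of its level, and in miR-21-/- tissue it was above it, at 1.11 times its level.

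*Becn1* and *Atg9a* act where the membrane begins to form. *Becn1* (chromosome 11, 101140517 to 101163587), which encodes Beclin 1, had 35.2 FPKM in miR-21+/+ and 34.8 FPKM in miR-21-/- tissue, a log2 ratio of −0.01. *Atg9a* (chromosome 1, 75177440 to 75207353) had 12.4 and 12.0 FPKM, a log2 ratio of −0.05. The locus of *Becn1* is shared with a row for *Cntd1* and that of *Atg9a* with rows for *Ankzf1* and *Glb1l*. Where such genes overlap, reads of a library without strand information cannot be told apart. *Vmp1* had 1.21 times the level of *Becn1* in miR-21+/+ and 1.96 times in miR-21-/- tissue.

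The 4 genes of the LC3 conjugation machinery were the least abundant with *Atg9a*, and each was slightly lower in miR-21-/- tissue as deposited. Their log2 ratios ran from −0.19 to −0.07, but with equal sums over named loci those of *Atg12* and *Atg5* turned positive. *Atg7* (chromosome 6, 114593118 to 114871867) encodes the E1-like enzyme that activates both LC3 and ATG12. It had 9.71 FPKM in miR-21+/+ and 8.53 FPKM in miR-21-/- tissue, a log2 ratio of −0.19. *Atg3* (chromosome 16, 45158849 to 45188651), the E2-like enzyme for LC3, had 20.03 and 17.99 FPKM, a log2 ratio of −0.15. *Atg12*, the ubiquitin-like partner of ATG5, had 20.03 and 18.82 FPKM, a log2 ratio of −0.09. *Atg5* (chromosome 10, 43988164 to 44084097) had 11.9 and 11.3 FPKM, a log2 ratio of −0.07. The locus of *Atg7* is shared with a row for *Vgll4* and that of *Atg5* with a row for *Mir1929*. For *Atg7*, 35.7% of named loci lay at least as far from 0, so its difference was of common size.

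In miR-21+/+ tissue the order from high to low was *Map1lc3b*, *Sqstm1*, *Map1lc3a*, *Vmp1*, *Becn1*, *Atg12*, *Atg3*, *Atg9a*, *Atg5* and *Atg7*. The only change of order in miR-21-/- tissue was that *Vmp1* moved from the fourth to the third place. *Atg12* and *Atg3* both had 20.03 FPKM in miR-21+/+ tissue. Whether other neighbours in this order differ beyond the spread between mice could not be tested. The levels spanned 12.6-fold from *Atg7* to *Map1lc3b* in miR-21+/+ and 14.1-fold in miR-21-/- tissue.

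**Figure D2:**
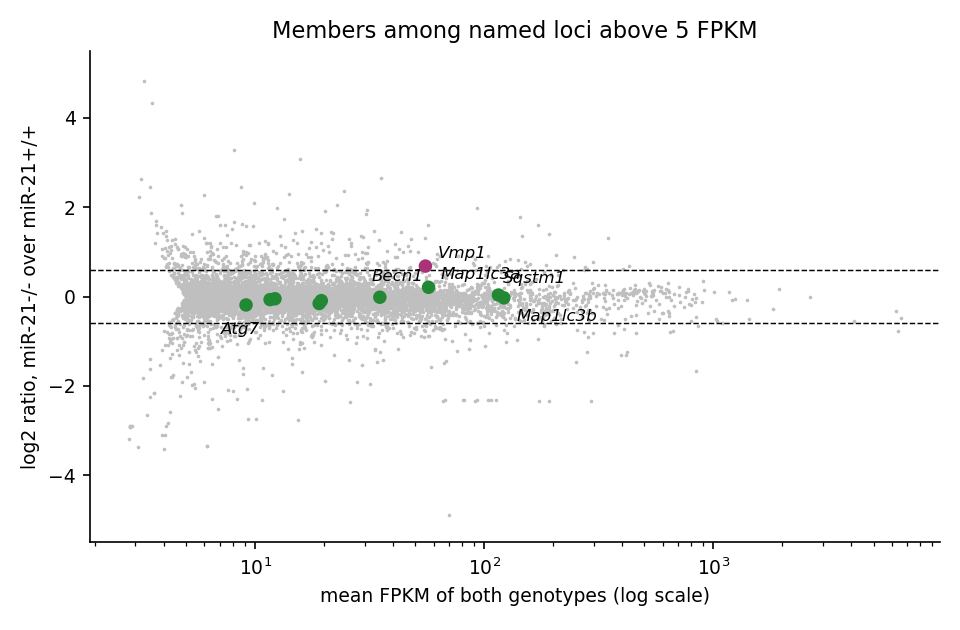
Log2 ratio of FPKM (miR-21-/- over miR-21+/+) against mean FPKM (log axis) for named loci above 5 FPKM in at least 1 genotype and above 0 in both (grey), with *Vmp1* in purple and the other 9 genes in green. Dashed lines mark 1.5-fold, and *Vmp1*, at 0.68, is the member outside them with the values as deposited.

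The loci with values most like those of *Vmp1* were found by distance on the log2 FPKM scale over the 2 genotype values. They were *Pygm* (40.1 and 67.1 FPKM in miR-21+/+ and miR-21-/-), the merged locus of *BC024139*, *Eppk1* and *Nrbp2* (42.9 and 63.9 FPKM), *Mgl2* (41.3 and 64.0 FPKM), *Cryab* (43.0 and 63.4 FPKM) and *Gng12* (39.5 and 66.0 FPKM). Their distances from *Vmp1* ran from 0.0845 for *Pygm* to 0.116 for *Gng12*. With 2 values per locus this likeness is a description of level and ratio and of nothing else.

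Beyond the 10 genes, a list of 60 autophagy genes in 8 roles was examined, and 59 of them were above 5 FPKM in at least 1 genotype. None of the 59 was past 1.5-fold in either direction as deposited, beside 8.18% of the named loci. At a lower limit of 0.32 on the log2 scale it was 3 of 59, beside 19.8%, and at 2-fold none of the 59 and none of the 10, beside 2.73%. Of all 60 genes, 43 (71.7%) differed by under 1.1-fold, as did 6 of the 10 core genes and 53.0% of the named loci. The median log2 ratio of the 60 was −0.02, with 24 higher and 36 lower as deposited, 43 higher and 17 lower with equal sums over named loci, and all 60 lower with equal sums over all loci.

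Genes of the start kinase complex and of membrane supply were nearly level as deposited. In the start kinase complex the log2 ratios of 5 genes ran from −0.03 to 0.08. *Ulk1*, the kinase that opens the pathway and the most abundant of them, had 24.8 FPKM in miR-21+/+ and 25.7 FPKM in miR-21-/- tissue in a locus merged with *Pus1*. Among 8 genes of membrane supply and lipid transfer the log2 ratios ran from −0.15 to 0.17, and *Wipi1*, which binds the lipid made by the Beclin 1 complex, had 22.6 and 23.7 FPKM. *Tmem41b*, an endoplasmic reticulum protein that acts with VMP1 and moves lipids as it does, had 9.98 and 9.21 FPKM, a log2 ratio of −0.12. It was lower under each scaling, whereas *Vmp1* was higher. *Tmem41b* was picked for its role with VMP1 after its values were seen.

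Partners of the LC3 conjugation genes and of the LC3 proteins also lay close to 0. Among 7 further conjugation genes the log2 ratios ran from −0.25 for *Atg4d*, a protease that trims and recycles LC3 proteins, to 0.05 for *Atg4a*. *Atg4b* was the most abundant, at 12.4 and 12.8 FPKM. The GABARAP proteins are the sister branch of LC3. *Gabarap*, in a locus merged with *Ctdnep1*, had 208.3 FPKM in miR-21+/+ and 205.4 FPKM in miR-21-/- tissue, which put this merged locus above *Map1lc3b* in both genotypes. *Gabarapl1* had a log2 ratio of 0.12 and *Gabarapl2* one of −0.03.

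The 3 genes past the lower limit as deposited lay in 3 other roles. *Bnip3*, a receptor on mitochondria that is induced by low oxygen, had 209.9 FPKM in miR-21+/+ and 146.8 FPKM in miR-21-/- tissue, 1.43-fold lower, with a log2 ratio of −0.52. *Sh3glb1*, which encodes a membrane-bending partner of the Beclin 1 complex, had 121.2 and 92.3 FPKM, 1.31-fold lower, with a log2 ratio of −0.39. It was the lowest of 8 genes of the lipid kinase complex, whose log2 ratios reached 0.10, with a median of −0.03. *Foxo3*, a transcription factor that can switch on autophagy genes, had 12.4 and 15.6 FPKM, 1.26-fold higher as deposited and lower (−0.30) with equal sums over all loci. *Bnip3* and *Sh3glb1* were lower under each scaling. *Foxo3* was named for this limit after its values were seen. As deposited 4 of 5 white fat markers were lower too, *Adipoq*, the adiponectin gene, by a log2 ratio of −0.50, and their part in the ratios of *Bnip3* and *Sh3glb1* was not tested.

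The later steps and the regulators had medians slightly below 0 as deposited. Among 12 genes of fusion with the lysosome the median log2 ratio was −0.09, and *Lamp1*, a lysosomal membrane protein, had 231.9 FPKM in miR-21+/+ and 217.0 FPKM in miR-21-/- tissue. For 9 regulators the median was −0.08 and the most abundant was *Foxo1*, at 22.7 and 18.8 FPKM. For 8 cargo receptors, which include *Bnip3* as the most abundant, the median was also −0.08. With equal sums over named loci these medians were 0.01 for fusion, 0.01 for regulators and 0.02 for cargo receptors.

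**Figure D3:**
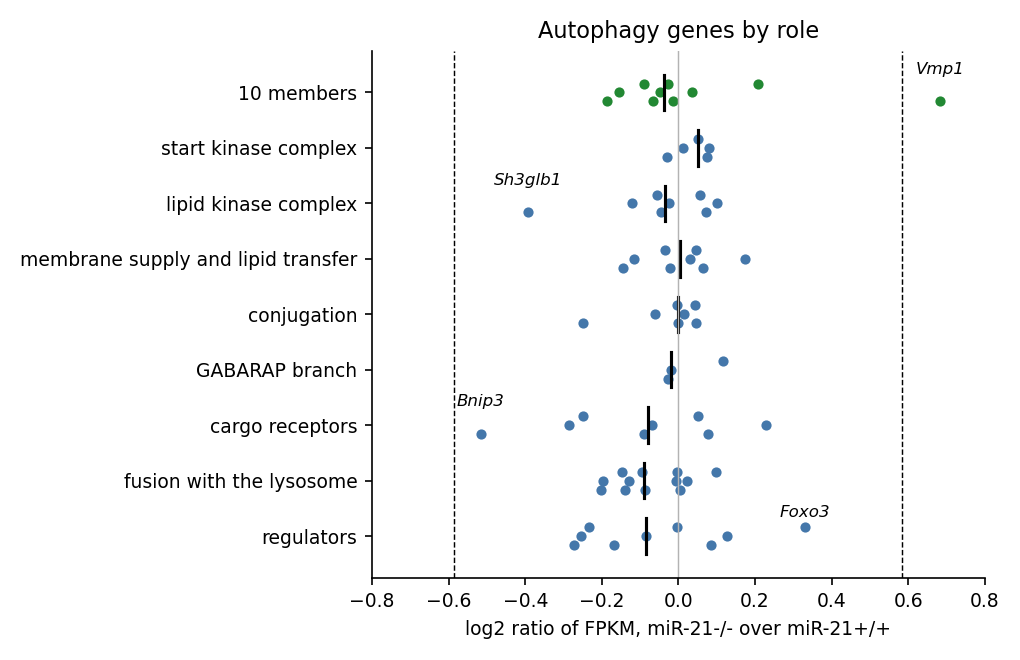
Log2 ratio of FPKM (miR-21-/- over miR-21+/+, as deposited) for the 10 members (green) and 60 further autophagy genes by role (blue), 1 point per gene. Short black bars are medians and dashed lines mark 1.5-fold. *Vmp1* at 0.68 is the point outside the lines, and *Bnip3* at −0.52 is the nearest to them of the wider list.

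The neighbours of *Vmp1* on chromosome 11 showed whether its ratio was shared along the region. Within 1 Mb, 22 other rows of named genes were above 1 FPKM in at least 1 genotype. Their median log2 ratio was −0.06, none was past 1.5-fold higher, and 2 were past it lower, both of them rows of *Tbx2* (−0.75 and −0.88). *Ptrh2*, whose locus begins 139 bp beyond the start of the *Vmp1* locus on the opposite strand, had 5.411 FPKM in miR-21+/+ and 5.301 FPKM in miR-21-/- tissue. *Cltc*, the clathrin heavy chain gene next to it, had 67.0 and 67.6 FPKM. On the other side *Tubd1* had 6.20 and 5.18 FPKM, and *Rps6kb1* and *Rnft1*, which share a locus, had log2 ratios of −0.11 and 0.04. The difference of *Vmp1* was thus not seen in the named genes on either side.

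Between the end of *Vmp1* and *Tubd1* lie 3 loci without a gene name, within 10 kb of the end of the host gene in its direction of transcription. Their choice was made with their values in view. The nearest, of 1706 bp (chromosome 11, 86392018 to 86393723), begins 3552 bp past the end of the *Vmp1* locus and had 0.716 FPKM in miR-21+/+ and 0.217 FPKM in miR-21-/- tissue. The next, of 248 bp (86391651 to 86391898), had 2.43 and 0.945 FPKM. The last, of 689 bp (86389951 to 86390639), had 0.869 and 0.326 FPKM. All 3 were thus lower in miR-21-/- tissue, by 3.30-fold, 2.58-fold and 2.67-fold, where the merged locus of *Mir21* and *Vmp1* was higher. Their log2 ratios, −1.72, −1.37 and −1.41, were lower still with equal sums over all loci and stayed below −1 under the other scalings.

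These values are low, and unnamed loci of such levels scatter widely. Of 7084 unnamed loci whose higher value lay between 0.5 and 5 FPKM, 18.3% were at least 2-fold lower and 15.5% at least 2-fold higher in miR-21-/- tissue. Of the 13 rows of unnamed loci within 1 Mb of *Vmp1* above 0.5 FPKM, 5 were at least 2-fold lower, including these 3, and none was 2-fold higher. Neighbouring loci may be pieces of a single transcript, so the 3 need not be separate measurements. The strand of their reads was not analysed here.

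**Figure D4:**
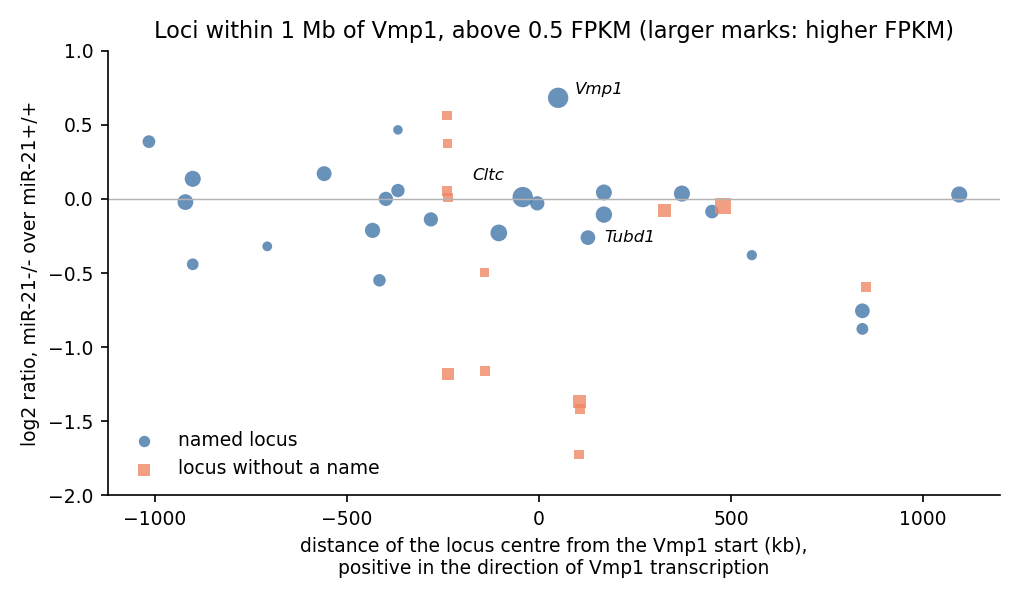
Log2 ratio of FPKM (miR-21-/- over miR-21+/+, as deposited) against the distance of each locus centre from the start of *Vmp1* in kb, for loci within 1 Mb above 0.5 FPKM. Circles are named and squares unnamed loci, and larger marks have a higher FPKM. *Vmp1* stands at 0.68, and the other named loci above 1 FPKM lie between −0.88 and 0.39, with a median of −0.06. The 3 unnamed loci just past its end lie between −1.72 and −1.37.

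Matches to the miR-21 seed were sought in the 3′ UTR of the 10 genes, taking the longest one that the annotation lists for a gene. A match to bases 2 to 8 of miR-21-5p reads ATAAGCT in the transcript. None of the 10 genes held it, beside 6.83% of 9738 genes above 5 FPKM, and none held it in any other annotated 3′ UTR. A weaker match, to bases 2 to 7 followed by an A, was present in *Map1lc3a*. With this match counted too, 1073 of the 9738 genes held one. It lies on the plus strand of chromosome 2 (mm9), 155103446 to 155103452, starting at nt 73 of a 3′ UTR of 436 nt. It is shown because it is the single match among the 10 genes, with the matching bases in capitals.
Map1lc3a 3′ UTR: tcctaaacTAAGCTAtttcag
The gene that holds it had a log2 ratio of 0.21. A match is a description of the sequence and was not tested as a site. The 3′ UTR of *Vmp1*, which holds the hairpin itself, had no match.

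Promoters, from 250 bases before to 50 bases after the start (RefSeq, GRCm38.p6), were found for 7 of the 10 genes. The letters CACGTG, an E-box that TFEB and TFE3 can bind, were present in those of *Atg3*, *Atg5* and *Atg7*. This was 3 of 7 genes, beside 7 of 52 genes of the wider autophagy list (13.5%) and 8.09% of 27025 genes. The longer TCACGTGA, which contains CACGTG, was present in *Atg3*, in 3 of the 52 genes of the wider list (5.77%) and in 1.12% of all genes. The STAT motif TTCNNNGAA was present in none of the 7, which include *Vmp1*, in 7 of the 52 genes of the wider list (13.5%) and in 9.55% of all genes. Each of these motifs reads the same on both strands. For *Vmp1* the STAT motif was sought only in such windows at its listed starts. The paper reports STAT5A binding at the miR-21 promoter, which it places in an intron of the host gene. That promoter was not sought here. The mRNA of TFEB had 5.53 FPKM in miR-21+/+ and 6.04 FPKM in miR-21-/- tissue, and that of TFE3 had 14.2 and 15.0 FPKM.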

How the data were processed

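RNA-Seq values of mammary tissue came from a single Cuffdiff table. The authors aligned single-end reads to mm9 with TopHat and estimated abundances with Cufflinks. Per the labels, CASAVA was also used. The program versions, annotation and normalization options are not given in the sources used here. The deposited FPKM values combine the mice of each genotype, so no fit across mice could be made. The table also holds the authors' fold changes, test statistics, p-values, q-values and calls, which were not used.

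Genotypes were grouped by the sample titles. Log2 ratios of FPKM were computed without a pseudocount. Loci were counted as past the limit at 1.5-fold with over 5 FPKM in at least 1 genotype, the minimum of the study. A locus at 0 in 1 genotype counted as past it. If a name had several rows, that with the highest mean FPKM was kept, and older names were matched for 6 genes. The members and gene lists were chosen with earlier results of these data known. All 10 members were named, as were the most abundant gene of each role, the nearest 2 loci on each side of *Vmp1* and the 5 loci most like it.

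The table counts starts from 0, since 7398 annotated starts matched after adding 1 and 424 as printed. Coordinates are given from 1. Transcripts were those of GENCODE vM1 (mm9). Alternatives were pseudocounts of 1 and 0.1, 3 scalings, and other fold limits, FPKM minimums and seed matches. The counting steps were run on simulated data with planted changes well past the limit and little noise. That run checks the counting code and says nothing about the spread in these data. Python 3.11.15, numpy 2.4.6, pandas 2.3.3 and matplotlib 3.10.9 were used.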

Additional observations from a re-analysis of the deposited data

How the results depend on the processing

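No paired analysis was possible because each genotype has a single combined FPKM value, and for this reason no fit without one of the mice was made. How precise the low values are cannot be stated without the depth. Scaling both columns to equal sums over all loci gave log2 ratios of 0.052 for *Vmp1*, −0.42 for *Map1lc3a*, −0.60 for *Sqstm1*, −0.64 for *Becn1*, −0.66 for *Map1lc3b*, −0.68 for *Atg9a*, −0.70 for *Atg5*, −0.72 for *Atg12*, −0.79 for *Atg3* and −0.82 for *Atg7*. It put 8 of the 10 genes, 42 genes of the wider list and 69.0% of the named loci past 1.5-fold, as its shift of −0.63 applies to every locus. A limit of 2-fold left 0 of the 10 genes and 2.73% of named loci past it, and a limit of 0.32 on the log2 scale gave 3 genes of the wider list and 19.8% of named loci. With the FPKM minimum replaced by a value above 0 in both genotypes, which also removes loci at 0 in 1 genotype, the share of named loci was 20.2%. Counting the weaker seed match gave 1 of the 10 genes. Under the remaining 71 combinations of result and alternative, single ratios moved by under 0.1 and counts and shares by no more than 1.5 times. Many of these moves were fixed in advance. Summing all rows of a name could not change any of the 10 genes, as each had 1 row. Setting the median named locus to 0 shifts every ratio by 0.029, and equal sums over named loci by 0.099. Some ratios near 0 changed sign under these shifts. The ratio of *Vmp1* was 0.71 when the median named locus was set to 0 and 0.78 with equal sums over named loci.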
